A study of Homo sapiens with 2 samples.

Results

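The interleukin-1 (IL-1) family was followed in TFK1, an established human cholangiocarcinoma cell line, after knockdown of MBD2, a protein that reads methylated CpG dinucleotides. The genes were 10, chosen by symbol from the 56638 genes of the deposited tables: the cytokines IL1A, IL1B, IL18, IL33 and IL36G, the receptor antagonist IL1RN, the receptor IL1R1, the decoy receptor IL1R2, the shared receptor chain IL1RAP and the signaling kinase IRAK2. The library labelled knockdown of MBD2 came from TFK1 cells carrying a shRNA against MBD2, and the library labelled negative control came from TFK1 cells carrying a control shRNA. Each group was 1 library, the labels give no treatment for either, and both cultures carried a lentiviral shRNA vector for which the cells had been drug-selected. The sources used here do not state which of the MBD2 shRNAs was sequenced. No gene below therefore has a replicate check or a p-value, and all intervals are 95% intervals that cover counting error only.

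IL-1α and IL-1β, encoded by IL1A and IL1B, are inflammatory cytokines that bind the receptor IL-1R1, which then recruits the accessory chain encoded by IL1RAP. The assembled receptor binds the adapter MYD88 and IRAK kinases, and the signal passes through TRAF6 and TAK1 to NF-κB and to MAP kinases. IL1RN encodes a secreted antagonist that occupies IL-1R1 without signaling, and IL1R2 encodes a decoy that binds the cytokines but lacks a signaling tail. IL-18, IL-33 and IL-36γ are related cytokines with receptors of their own, and epithelia of ducts and skin are among their sources.

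The counts summed to 14728814 in MBD2 knockdown and 14467406 in negative control. MBD2 had 365 counts (15.6 TPM) in MBD2 knockdown and 1013 (44.6 TPM) in negative control, a normalized count of 35.8% of the control. All 8 bile duct epithelial markers were counted in both libraries, led by KRT8 at 3006 and 3890 TPM, with KRT19 the lowest by counts in negative control (119 and 70 counts). The 10 leukocyte markers held 59 and 53 counts in all, of which ITGAM held 50 and 38; PTPRC, TYROBP, CD68, LYZ and CD3E had 0 or 1 count in each library. Fibroblast markers summed to 10 and 15 counts, endothelial markers to 0 and 1, and of the keratinocyte markers KRT10 held 507 of 552 and 607 of 670 counts.

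Of the 10 genes, 7 had at least 10 counts summed over both libraries and were given a log2 fold change (log2FC, MBD2 knockdown over negative control, after TMM scaling). IL1A and IL1B had 7 and 1 counts in negative control and reached this minimum only with their counts in MBD2 knockdown. IL1B therefore had to be higher in MBD2 knockdown to be among the 7. The 2 IL-1 cytokines and the kinase IRAK2 were higher in MBD2 knockdown, with a log2FC of 2.42 for IL1A, 4.02 for IL1B and 2.97 for IRAK2. IL1RAP (0.76) and IL18 (0.13) were higher by less than 1, and IL1R1 (-0.70) and IL1R2 (-0.81) were lower by less than 1. Thus 3 of the 7 lay at or above a log2FC of 1, where 5.48% of the 17545 genes tested lay, and 0 of the 7 lay at or below -1, where 5.07% of all tested genes lay. These 3 also lay at or above 2, as did 1.46% of all tested genes. The median of the 7 was 0.76, against -0.0082 over all tested genes, and it was 0.44 over the members with at least 100 counts. IL1RN, IL33 and IL36G had 0 or 1 count in each library and were given no fold change. Fewer cells expressing a gene and less RNA per cell cannot be told apart in these bulk libraries.

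**Figure D1:**
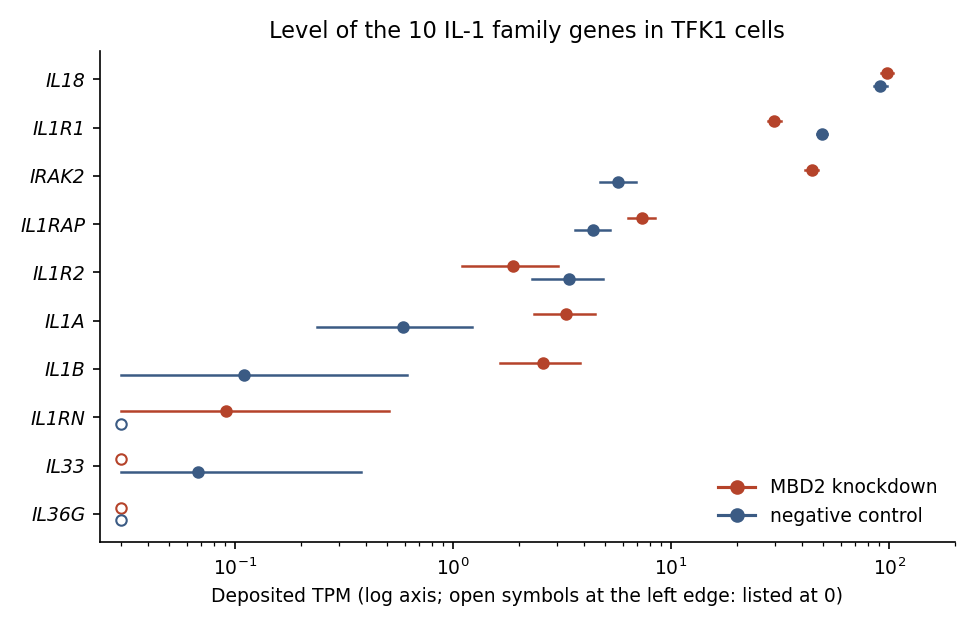
Level of each of the 10 genes in MBD2 knockdown (red) and negative control (blue), as deposited TPM on a log axis, with the exact Poisson interval of the counts as lines (cut at the left edge) and open symbols for genes listed at 0. IL18 is the highest in both libraries, IRAK2 sits at 44.2 TPM in MBD2 knockdown and 5.72 TPM in negative control, and IL1RN, IL33 and IL36G stay under 0.1 TPM.

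In TPM, which accounts for gene length, IL18 was the most abundant of the 10 in both libraries, at 98.0 TPM in MBD2 knockdown and 91.0 TPM in negative control. It made up 52.4% and 58.9% of the TPM of the 10 genes. In MBD2 knockdown the order below IL18 was IRAK2 (44.2 TPM), IL1R1 (29.7 TPM), IL1RAP (7.32 TPM), IL1A (3.29 TPM), IL1B (2.57 TPM) and IL1R2 (1.88 TPM). The counting intervals of IL1A, IL1B and IL1R2 overlapped each other. In negative control the order was IL1R1 (49.2 TPM), IRAK2 (5.72 TPM), IL1RAP (4.39 TPM), IL1R2 (3.41 TPM), IL1A (0.591 TPM) and IL1B (0.110 TPM). There the intervals of IRAK2, IL1RAP and IL1R2 overlapped each other, as did those of IL1A and IL1B. IRAK2 stood above IL1R1 in MBD2 knockdown and below it in negative control, with intervals apart in both libraries. For scale, the median over all tested genes was 12.0 TPM in MBD2 knockdown and 12.2 TPM in negative control, so that IL1A, IL1B, IL1R2 and IL1RAP were below the median gene in both libraries.

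IL1A, whose product IL-1α is active in its full-length form and can be released from damaged epithelial cells, had 40 counts in MBD2 knockdown and 7 in negative control. It was 5.68-fold higher in MBD2 knockdown (interval 2.52 to 15.0), and 177 of the tested genes had a higher log2FC. IL1B, whose product is made as an inactive precursor, had 24 counts in MBD2 knockdown and 1 in negative control. Its ratio was 23.9 with an interval from 3.89 to 981, so its size was hardly fixed by these counts, while its lower end lay above 2-fold. The IL1A and IL1B counts together were 64 in MBD2 knockdown and 8 in negative control, or 5.87 and 0.701 TPM. The change in the ratio of IL1A to IL1B between the libraries was not detectable at this depth, since its interval ran from 0.00508 to 2.07. Both cytokines remained rare transcripts in MBD2 knockdown, with 28.2% of tested genes below IL1A in TPM and 24.4% below IL1B.

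IL1RN, the antagonist of both cytokines, had 1 count in MBD2 knockdown and 0 in negative control. A count of 0 allows up to 3 counts, or 0.207 CPM in negative control and 0.204 CPM in MBD2 knockdown. In MBD2 knockdown the upper end of the IL1RN interval was 0.507 TPM, below the lower ends for IL1A (2.35 TPM) and IL1B (1.65 TPM).

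IL18, whose product is an interferon-γ inducing cytokine that epithelia store as a precursor, had 951 counts in MBD2 knockdown and 861 in negative control. The log2FC of IL18 was 0.13, and its interval of 0.00 to 0.27 began at 0 and lay well inside 1. IL18BP, the secreted inhibitor of IL-18, had 144 and 139 counts (log2FC 0.042, interval -0.30 to 0.39). IL18R1, the receptor chain that binds IL-18, had 49 and 46 counts (log2FC 0.081, interval -0.53 to 0.70). The ratio of IL18 to IL18BP differed between the libraries by a factor of 1.07 (interval 0.823 to 1.38) and that of IL18 to IL18R1 by 1.04 (interval 0.671 to 1.60). IL18RAP, the signaling chain for IL-18, had 1 and 2 counts.

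IL33, an alarmin held in the nucleus of barrier and endothelial cells, had 0 counts in MBD2 knockdown and 1 in negative control. Its receptor gene IL1RL1 had 1 and 0 counts. IL36G, a cytokine of inflamed skin, had 0 counts in both libraries, as did IL1RL2, which encodes its receptor. Of the 5 other ligand genes of the family, IL36A, IL36B, IL36RN and IL1F10 had no counts, and IL37 had 0 in MBD2 knockdown and 4 in negative control.

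IL1R1 had 874 counts in MBD2 knockdown and 1411 in negative control, at levels of 29.7 and 49.2 TPM. On the log2 scale IL1R1 was at -0.70 (interval -0.82 to -0.58), so the counting interval left out 0 and did not reach -1. IL1R2, the decoy, had 17 and 30 counts, and the interval of its log2FC of -0.81 ran from -1.78 to 0.077 and included 0. The excess of receptor over decoy in TPM was 15.8 in MBD2 knockdown and 14.4 in negative control, and these ratios differed by a factor of 1.09 (interval 0.580 to 2.13).

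IL1RAP had 200 counts in MBD2 knockdown and 117 in negative control, or 7.32 and 4.39 TPM, with a log2FC of 0.76 (interval 0.43 to 1.11). Receptor and accessory chain thus lay on opposite sides of 0. IL1R1 exceeded IL1RAP 4.06 times in TPM in MBD2 knockdown and 11.2 times in negative control, a ratio 0.363 times that of the control (interval 0.282 to 0.465). SIGIRR, an inhibitory receptor of the family, had 313 and 232 counts (log2FC 0.42, interval 0.17 to 0.67), and its TPM of 29.3 in MBD2 knockdown was close to that of IL1R1, whereas in negative control it was 22.3. The ratio of IL1R1 to SIGIRR was 1.01 and 2.21, a factor of 0.459 between the libraries (interval 0.378 to 0.557). Of the 8 other receptor and binding protein genes, 3 had at least 10 counts. None of these lay past 1 or -1, where 5.48% and 5.07% of all tested genes lay.

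IRAK2, a kinase of the MYD88 complex that sustains the signal to NF-κB, had 880 counts in MBD2 knockdown and 111 in negative control. It was 7.88-fold higher in MBD2 knockdown (interval 6.46 to 9.69), and 102 tested genes had a higher log2FC. Of the 3 genes past 1, it had the most counts in either library and the narrowest interval. IRAK1, a related kinase of the same complex, had 2658 and 2367 counts (log2FC 0.16, interval 0.078 to 0.24). IRAK4, the kinase that starts the cascade, had 312 and 362 (log2FC -0.22, with the upper end of the interval just below 0). IRAK3, an inhibitory relative, had 9 counts in MBD2 knockdown and 0 in negative control, under the minimum. Set against 3 counts it was 2.98-fold higher, and its counting interval started at 1.96-fold. IRAK2 made up 24.0% of the TPM of IRAK1, IRAK2, IRAK3 and IRAK4 in MBD2 knockdown and 4.17% in negative control. The ratio of IRAK2 to IRAK1 was 0.349 in MBD2 knockdown and 0.0493 in negative control, a factor of 7.06 (interval 5.74 to 8.75).

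**Figure D2:**
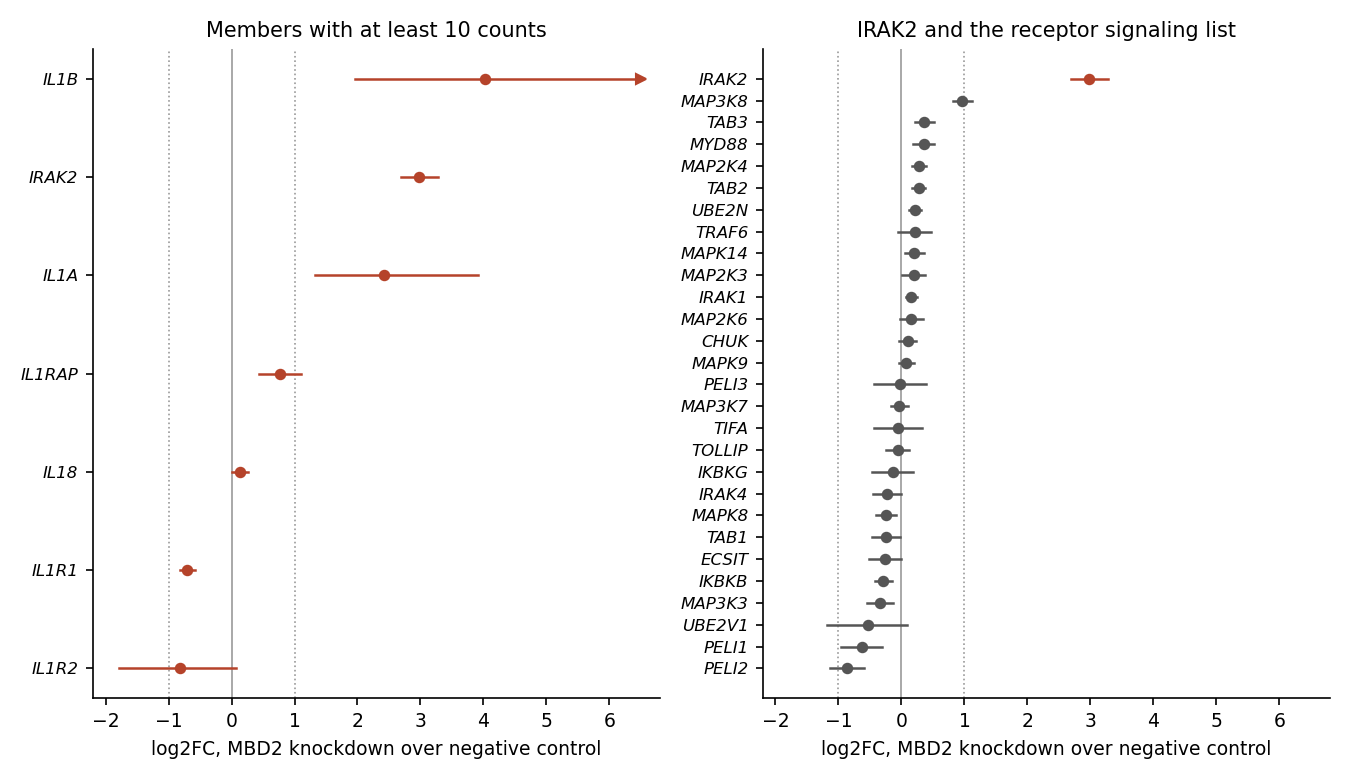
log2FC of the 7 genes with at least 10 counts (left) and of IRAK2 beside the 27 receptor signaling genes with at least 10 counts (right), with exact counting intervals as lines, an arrow where an interval runs past the axis, and dotted lines at 1 and -1. IL1A, IL1B and IRAK2 lie wholly above 1. None of the 27 signaling genes drawn beside IRAK2 reaches 1 by its estimate, against 5.48% of all tested genes that did. IRAK3, under the count minimum, is not drawn.

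Of 28 other genes listed for IL-1 receptor signaling, 27 had at least 10 counts, IRAK3 being the exception. Of the 27, 0 were at or above 1 or at or below -1, with a median log2FC of -0.023. Over all tested genes 5.48% lay at or above 1 and 5.07% at or below -1, so few of 27 would lie past either line at these shares. The nearest to 1 was MAP3K8, a kinase upstream of ERK, with 1032 counts in MBD2 knockdown and 524 in negative control (log2FC 0.97, interval 0.82 to 1.12). The lowest was PELI2, a ubiquitin ligase that binds IRAK proteins, with 176 and 319 counts (log2FC -0.87, interval -1.14 to -0.60). MYD88 had 682 and 531 counts (log2FC 0.35), and TRAF6 had 257 and 221 (log2FC 0.21, interval -0.056 to 0.47). In TPM, IRAK2 was at 1.23 times MYD88 in MBD2 knockdown and at 0.199 times MYD88 in negative control.

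Of 27 genes listed for the processing of IL-1 cytokines and their release from the cell, inhibitors such as SERPINB8 among them, 18 had at least 10 counts. Of these, 4 (22.2%, against 5.48% of all tested genes) were at or above 1 and 1 (5.56%, against 5.07%) was at or below -1, with a median of 0.17. PYCARD, the inflammasome adapter, had 9 counts in MBD2 knockdown and 1 in negative control, a ratio of 8.95 with an interval from 1.24 to 392. CASP1, the protease that cleaves the precursors of IL-1β and IL-18, was at 15 and 7 counts with a log2FC of 1.04, an estimate whose interval included 0 (-0.29 to 2.63). Both PYCARD and CASP1 had fewer than 10 counts in negative control and reached the minimum only with their counts in MBD2 knockdown. PYCARD therefore had to be higher in MBD2 knockdown to be among the 18. With a minimum of 100 counts, 2 genes of the list lay at or above 1 and 0 at or below -1. CTSS, which encodes cathepsin S, had 922 and 331 counts (log2FC 1.47, interval 1.29 to 1.65), and SERPINB8, a protease inhibitor, had 193 and 70 (log2FC 1.45, interval 1.05 to 1.87). ELANE, a neutrophil elastase gene, had 5 and 11 counts (log2FC -1.07, interval -3.02 to 0.50). The sensors NLRP3 and AIM2 had no counts in either library. The most abundant gene was CAPN2, which encodes a calpain subunit, a family whose proteases cut the IL-1α precursor, at 199.7 and 217 TPM (log2FC -0.094).

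Genes known to respond to IL-1 in epithelia were mostly higher in MBD2 knockdown. Of 30 listed, 25 had at least 10 counts, and 22 of these (88.0%, against 5.48% of all tested genes) were at or above 1 and 0 at or below -1. ICAM1, SAA1, SAA2, IL6, CXCL6, CCL20, CSF3 and TNIP3 had fewer than 10 counts in negative control and reached the minimum only with their counts in MBD2 knockdown. All of them but TNIP3, which had 8 counts in negative control, had to be higher in MBD2 knockdown to be among the 25. The median was 3.50, or 2.32 when the 5 genes with no counts in negative control were placed at their bound against 3 counts. ICAM1, an adhesion molecule, had 187 counts in MBD2 knockdown and 0 in negative control. Set against 3 counts it was 62.0-fold higher, and its counting interval started at 49.9-fold. CCL20, a chemokine, had 408 and 1 counts, a ratio of 405 with an interval that started at 72.4. IL8, a chemokine for neutrophils, had 3052 and 27 counts (log2FC 6.79). SAA1, an acute phase protein gene, had 94 and 0, and the cytokine gene IL6 had 39 and 0. TNFAIP2 had the highest mean TPM over both libraries, at 531 and 254 TPM (log2FC 1.09), although CXCL1, a chemokine, was above it in MBD2 knockdown at 536 TPM. Many of these genes respond to other stimuli of NF-κB as well, SAA1 and SAA2 share much of their sequence and may share reads, and these genes were listed with earlier results of these data known.

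**Figure D3:**
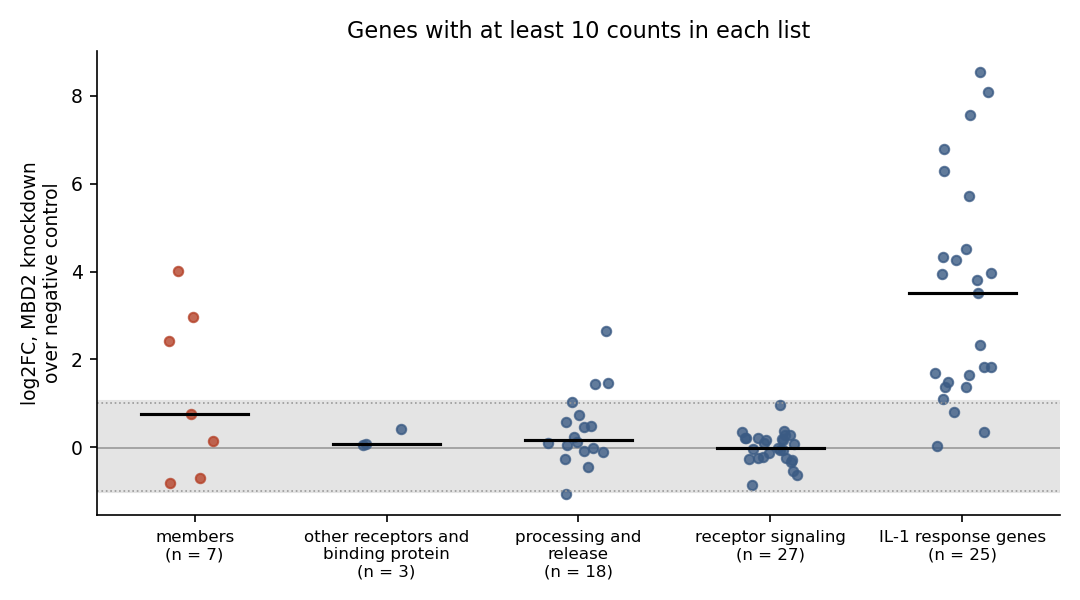
log2FC of each gene with at least 10 counts in the IL-1 family genes (red) and in 4 pathway lists (blue), with the list median as a black bar, dotted lines at 1 and -1, and a gray band from the 5th to the 95th percentile of all tested genes (-1.02 to 1.06). Genes with no counts in negative control are drawn at their fitted value, which is no bound; the response genes lie mostly above the band and the signaling genes within it.

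Several of the members lie on chromosome 2, in a ligand cluster (IL1A, IL1B, IL36G and IL1RN) and a receptor cluster (IL1R2 and IL1R1). Of the 11 genes from CKAP2L to PSD4 in the ligand cluster, 4 had at least 10 counts. Of these, IL1A and IL1B lay at or above 1, as did 5.48% of all tested genes. IL1B could reach the minimum only by being higher in MBD2 knockdown, and with a minimum of 100 counts 0 genes of the cluster lay past 1. CKAP2L, a mitotic spindle gene 93.4 kb before IL1B by gene start, had 726 and 903 counts (log2FC -0.32), and PSD4, 344 kb after it, had 133 and 140 (log2FC -0.083). The 7 interleukin genes between IL1B and PSD4, IL1RN among them, had between 0 and 4 counts in either library. In the receptor cluster, IL1R2 and IL1R1 are adjacent and had log2FC estimates of -0.81 and -0.70, but the interval of IL1R2 included 0. MAP4K4, before them, was at 0.43 (3106 and 2292 counts), and IL18R1, after them, was at 0.081. IL1RL2 and IL1RL1, which lie between IL1R1 and IL18R1, had no more than 1 count.

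**Figure D4:**
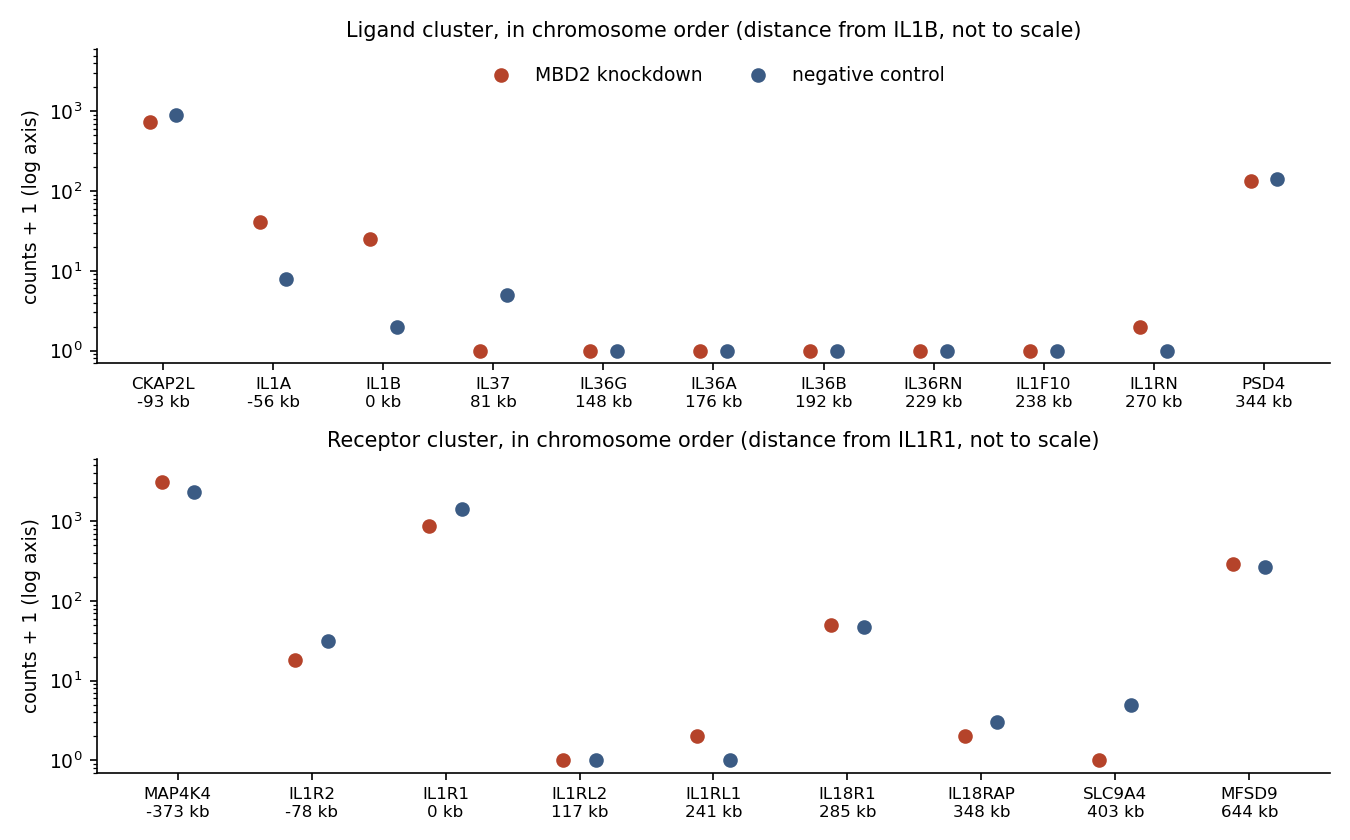
Counts plus 1 (log axis) in MBD2 knockdown (red) and negative control (blue) for the genes of the ligand cluster (top) and the receptor cluster (bottom) in chromosome order, with the distance of each gene's start from that of IL1B or IL1R1 in kb. IL1A and IL1B (40 and 24 counts against 7 and 1) lie beside genes with 0 to 4 counts. The flanking genes had 726 and 903 counts (CKAP2L) and 133 and 140 counts (PSD4).

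The promoter windows of the 3 genes past 1, and of IL1RAP, are shown because they differ in CpG content, the dinucleotide whose methylated form MBD2 binds. They run from 250 bases before to 50 bases after a RefSeq start on GRCh38.p14 and are written 5′ to 3′ on the gene's strand, with each CpG in capitals. IL1A (chr2:112784444-112784743, minus strand, the start listed first of its 2), IL1B (chr2:112836730-112837029, minus strand), IRAK2 (chr3:10164669-10164968, plus strand) and IL1RAP (chr3:190513835-190514134, plus strand) read:
IL1A: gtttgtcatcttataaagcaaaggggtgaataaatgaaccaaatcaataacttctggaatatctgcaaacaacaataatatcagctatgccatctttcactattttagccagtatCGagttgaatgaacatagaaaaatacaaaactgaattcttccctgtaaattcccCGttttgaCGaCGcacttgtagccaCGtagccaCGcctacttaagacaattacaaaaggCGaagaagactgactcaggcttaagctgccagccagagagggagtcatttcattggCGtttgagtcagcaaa
IL1B: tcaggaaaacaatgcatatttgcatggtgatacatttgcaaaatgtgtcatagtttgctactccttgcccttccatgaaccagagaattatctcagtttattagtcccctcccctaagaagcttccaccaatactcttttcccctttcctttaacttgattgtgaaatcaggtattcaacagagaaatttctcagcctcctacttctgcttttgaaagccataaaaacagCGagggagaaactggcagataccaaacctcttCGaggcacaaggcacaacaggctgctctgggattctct
IRAK2: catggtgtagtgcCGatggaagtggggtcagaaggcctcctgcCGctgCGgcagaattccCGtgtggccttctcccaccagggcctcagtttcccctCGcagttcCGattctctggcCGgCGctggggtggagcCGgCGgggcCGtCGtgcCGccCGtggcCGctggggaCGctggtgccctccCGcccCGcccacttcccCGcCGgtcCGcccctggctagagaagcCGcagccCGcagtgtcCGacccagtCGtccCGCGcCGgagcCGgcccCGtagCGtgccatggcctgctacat
IL1RAP: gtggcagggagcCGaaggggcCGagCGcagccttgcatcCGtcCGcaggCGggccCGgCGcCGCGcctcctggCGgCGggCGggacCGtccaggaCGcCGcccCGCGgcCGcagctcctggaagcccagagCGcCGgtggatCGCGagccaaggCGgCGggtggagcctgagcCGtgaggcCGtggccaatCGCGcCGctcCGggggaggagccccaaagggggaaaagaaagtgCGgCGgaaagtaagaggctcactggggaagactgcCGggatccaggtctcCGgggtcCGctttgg

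The IL1B window held 2 CpG and the IL1A window 8, fewer than the median of 14 over all 35116 RefSeq windows of this length. The IRAK2 window held 31 and the IL1RAP window 36, with observed over expected CpG ratios of 0.802 and 0.902, against 0.155 for IL1B, 0.680 for IL1A and a median of 0.579 over all windows. By this ratio IL1A lay above the median window, and by the number of CpG below it. Over the 9 members that the RefSeq table holds, 14 of 17 windows lay below the median, with at most 9 CpG, and 3 above it, the third being 1 of the 4 windows of IL1R1, with 40. IL18 was not among the members matched. Methylation was not measured in these files.

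The same windows were searched on both strands for 3 motifs. The NF-κB consensus was found in 1 of the 17 windows, a window of IL1R2 (GGGGTGCTCC, at -125 from the start), and in 11.3% of all windows. The AP-1 motif TGANTCA was found in 3 of the 17, both windows of IL1A, which overlap, and a window of IL1RN, and in 7.71% of all windows. In the IL1A window printed above it began at -12 (TGACTCA) and at 39 (TGAGTCA). The TATA motif TATAAA was found in 4 of the 17 and in 11.5% of all windows. The IRAK2, IL1B and IL1RAP windows held none of the 3 motifs, which says only that these letters are not in these 300 bases.

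Other genes that overlap the members could share reads, because the sources used here do not state whether the counting used strand. IL1R1-AS1, on the opposite strand of IL1R1, had 1 and 0 counts, and RN7SKP296 and GCNT1P3, inside IL1RAP, had at most 4 in either library. A gene that overlaps IL18 on the opposite strand in GENCODE 29 was not matched in the tables. For IL1R1 and IL1RAP, these counts were far below the difference in counts between the libraries.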

How the data were processed

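Total RNA of TFK1 cells was sequenced in 2 libraries, MBD2 knockdown and negative control. Per the labels, the authors used fastp, HISAT2 2.1.0, featureCounts and DESeq 1.18.1 with GRCh38.p13; the annotation and strand setting are not given in the sources used here. The authors deposited a table of raw read counts per gene symbol and a signal table of TPM. Rows that repeat a symbol and its values were reduced to 1, after which the TPM summed to 1000000 in each library (1122241 and 1129779 as deposited), and 46 lines without an Ensembl identifier were dropped. The tables hold columns of both libraries only.

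Counts were scaled with TMM factors (edgeR 4.0.16, R 4.3.3). A gene entered with 10 or more counts in the sum of the libraries, and its log2FC used a prior of 0.5 counts. Intervals (95%, exact) were Clopper-Pearson for how a gene's reads divided between the libraries, Poisson for TPM, and conditional for the change in the ratio of 2 genes (scipy 1.17.1). With 1 library per group, no test was run; a log2FC at or past 1 or -1 was counted as past the line. A fold against 0 counts is a bound against 3 counts, which leaves out the counting error of the other library. With 1 to 3 counts the ratio and its interval are given instead of the bound first planned. The scripts were tested on simulated counts.

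The genes and lists were chosen with earlier results of these data known. Named were all members, MBD2, marker genes and, from each list, up to 5 genes past 1 or -1 with the largest log2FC and the gene with the highest mean TPM. The other genes named, the gene pairs and the motifs were chosen after values were seen. RefSeq promoter windows (GRCh38.p14) were matched by symbol for 9 of the 10 members, and gene starts in the chromosome 2 clusters were also from RefSeq. Alternatives were DESeq2 1.42.0 size factors, total counts, upper-quartile factors, priors of 2 and 0.1, log2 of TPM plus 0.1 or 1, minimums of 1 and 100 counts, all deposited rows and a line at 2.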

Additional observations from a re-analysis of the deposited data

How the results depend on the processing

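IL1A, IL1B and IRAK2 lay past 1 under every scaling, prior and pseudocount tried; across all alternatives that kept them, log2FC ranged from 1.43 to 2.49 for IL1A, from 1.69 to 4.45 for IL1B and from 2.75 to 2.99 for IRAK2. IL18 (0.11 to 0.15), IL1RAP (0.63 to 0.78), IL1R1 (-0.73 to -0.68) and IL1R2 (-0.83 to -0.61) kept their direction and stayed inside 1 and -1. Of 253 alternative values, 226 stayed within their counting interval (for the median of the members, that of the gene holding it) or within 1.5 times the reported count, and 27 did not. With log2 of TPM plus 1, IL1B was at 1.69, 374 and 340 of all tested genes lay past 1 and -1, and 0 processing genes lay below -1, as was also the case with a prior of 2. With at least 100 counts, IL1A and IL1B were not kept, so 1 member, IRAK2, and 0 genes of the ligand cluster lay past 1, and the median of the members was 0.44 instead of 0.76; 211 and 128 of all genes and 2 and 0 of the processing genes lay past 1 and -1. With at least 1 count, 4523 and 4303 of all genes lay past 1 and -1, and each line gained a member on a single read, IL1RN above 1, which made 4, and IL33 below -1, which made 1. The same minimum put 1 receptor gene of the other receptors past each line, 2 processing genes below -1, 1 signaling gene above 1, 1 response gene below -1, 1 gene of the ligand cluster below -1, and 1 gene of the receptor cluster past each line. At a line of 2, 256 and 155 of all genes, 1 and 0 processing genes and 14 response genes lay past it. No paired analysis was possible because each group has 1 library. The variation between cultures was not measured, so no interval here covers it.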

Other observations

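The positions that the tables give for most of the members differed from those of the build named in the labels. For IL1A, IL1B, IL1RN and IL36G, the start and the end in the tables lay 757577 bases above those of the same Ensembl identifier in GENCODE 29 (GRCh38), for IL1R1 616460 bases above, and for IL18 the difference was -129277 bases. IL33 had the same end and a start 19 bases off, and the range of IRAK2 overlapped that of GENCODE 29 with a shift of 41684 bases. Of the 52275 identifiers that the tables and GENCODE 29 place on the same chromosome, 328 had the same start (0.628%). Whether the reads were counted on the annotation whose positions are printed was not tested, and for that reason no position from the tables is given above.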
